A study of Mus musculus with 12 samples.

Results

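Nog, Grem1, Fst, Fstl1, Fstl3, Bmp1, Ltbp1, Ltbp2, Ltbp3 and Ltbp4 encode secreted proteins that hold back, process or store ligands of the TGFb family. They were chosen by gene name, with earlier results of these data known. They are 10 of the 54347 genes in the deposited table, and all 10 were found there. RNA was sequenced from 12 libraries of mouse PYMT cells grown in matrigel, a basement membrane gel, in 4 groups of 3 biological replicates. PYMT names a mouse model in which the polyoma middle T antigen causes mammary tumours. The groups were untreated (NT), TGFB2, BMP4, and both ligands together (BMP4-TGFB2), each ligand at 5 ng/mL for 3 days, and all cells were collected 2 days after the medium had been replaced. The series concerns dormancy, in which tumour cells stop dividing for long periods, and its induction by either ligand or both. All groups are the same cell line, which limits them to a single model, and the labels do not say what set the replicates apart, so the p-values rest on the spread among these libraries, which may be technical.

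Ligands of the family reach their receptors only after passing a set of extracellular controls. Noggin and gremlin wrap BMP dimers, and follistatin (Fst) and the follistatin-like protein Fstl3 bind activins, so that the receptors cannot be reached. TGFb is secreted as an inactive complex in which latent TGFb binding proteins (LTBPs) tether the propeptide to the matrix, and Ltbp1, Ltbp3 and Ltbp4 bind it covalently while Ltbp2 does not. The protease Bmp1, in spite of its name not a ligand, cleaves procollagens, the BMP antagonist chordin and LTBPs.

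In outline, Bmp1, Fstl3, Ltbp2 and Nog were higher in every treated group than in untreated cells. Nog had low counts and entered the test only through treated libraries. Fstl1 was higher in both groups that had TGFB2, and Ltbp3 was lower with BMP4 alone. In some alternative fits Fstl3 with BMP4, Nog with either ligand alone, Fstl1 with both ligands and Ltbp3 with BMP4 no longer passed. Bmp1 and Ltbp2 passed with every treatment in all 14 alternatives. Ltbp1 was lower in every treated library than in every untreated one. It did not pass in the main model, which has no term for the replicate number. It passed in some alternatives, and with every treatment in the fit with that number as a block. Fst passed only in such alternatives too, and Ltbp4 in none. Grem1 was close to 0 throughout. The test was the quasi-likelihood test of edgeR, and passing means a p under 0.05 after Benjamini-Hochberg adjustment over all 15319 genes tested. Log2 fold changes are given ± SE from that model, and levels ± SD over 3 libraries.

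Levels are in CPM, a gene's count scaled to the library total. TPM, which also divides by transcript length, is used where genes are set against each other. Total counts ran from 28543100 to 42167700 per library. The cells carried the luminal epithelial markers fixed for the check (Epcam, Krt8, Krt18 and others), whose summed level was 4028 to 5009 CPM across all libraries. Within that list of 8, 4 genes fell with TGFB2, 2 with BMP4 and 4 with both, beside 11.1%, 2.25% and 12.9% of all genes tested. Elf5, a transcription factor of milk-producing cells, averaged 199.7 CPM in NT and 13.3, 71.2 and 7.55 with TGFB2, BMP4 and both. Csn3, a milk casein, averaged 163.2 CPM in NT and 0.979, 2.13 and 1.14. The 10 fibroblast markers, of which 8 could be tested, summed to 5.67 to 15.2 CPM in NT, 20.9 to 33.7 with TGFB2, 7.81 to 23.5 with BMP4 and 15.8 to 31.6 with both. Of those 8, 4 rose with TGFB2, 0 with BMP4 and 3 with both, beside 11.3%, 3.19% and 13.3% of all genes tested, and 0 fell. Pdgfra averaged 0.689 CPM in NT and 3.58, 1.05 and 4.47 with TGFB2, BMP4 and both. Fap, a fibroblast marker, was at 0 in some libraries and reached at most 0.164 CPM. The leukocyte markers summed to 2.38 to 4.55 CPM in NT, 8.46 to 10.6 with TGFB2, 6.74 to 9.52 with BMP4 and 8.80 to 11.7 with both. Of the 4 that could be tested, 2 rose with TGFB2, 1 with BMP4 and 1 with both, and 0 fell. Csf1r averaged 0.318 CPM in NT and 4.02, 1.96 and 5.05 with TGFB2, BMP4 and both. Ptprc, which defines leukocytes, was at 0.915 CPM at most. Basal markers, mostly Krt14, summed to 175 to 413 CPM in NT, 351 to 584 with TGFB2, 1000 to 1309 with BMP4 and 444 to 955 with both. Of the 6 of these 7 that could be tested, 0 rose with TGFB2, 1 with BMP4 and 2 with both, and 0 fell. Krt14 rose with BMP4 and with both (edgeR adjusted p = 0.00891 and 0.0118), and Krt17 with both (0.0153). Trp63, also on that list, averaged 1.13 CPM in NT and 0.208, 0.599 and 0.262 with TGFB2, BMP4 and both, and its changes did not pass. The part of such cells in the results below was not tested. In bulk RNA, fewer cells of a type and less RNA per cell cannot be told apart.

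Of the members, 7 of 10 had an entry in the RefSeq promoter table (GRCm38.p6), and 3 that the results turn on are shown because Fstl3 and Ltbp2 rose and Ltbp3 fell. Each run ends at or just before the annotated start of the gene and reads 5′ to 3′ on the gene's strand. Capitals mark CAGAC, the short sequence that SMAD proteins bind, or its complement GTCTG. The windows are chr10:79777024-79777271 for Fstl3 (plus strand), chr12:84876533-84876741 for Ltbp2 (minus strand) and chr19:5740650-5740899 for Ltbp3 (plus strand).
Fstl3: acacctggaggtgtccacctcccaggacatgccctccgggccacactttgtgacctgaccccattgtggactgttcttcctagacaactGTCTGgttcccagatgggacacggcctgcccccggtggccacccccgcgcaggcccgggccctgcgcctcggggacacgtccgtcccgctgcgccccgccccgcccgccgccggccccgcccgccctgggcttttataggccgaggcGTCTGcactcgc
Ltbp2: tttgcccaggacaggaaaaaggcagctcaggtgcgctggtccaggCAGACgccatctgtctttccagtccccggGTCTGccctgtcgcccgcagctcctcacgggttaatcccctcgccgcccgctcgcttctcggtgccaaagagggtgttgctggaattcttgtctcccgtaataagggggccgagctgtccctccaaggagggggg
Ltbp3: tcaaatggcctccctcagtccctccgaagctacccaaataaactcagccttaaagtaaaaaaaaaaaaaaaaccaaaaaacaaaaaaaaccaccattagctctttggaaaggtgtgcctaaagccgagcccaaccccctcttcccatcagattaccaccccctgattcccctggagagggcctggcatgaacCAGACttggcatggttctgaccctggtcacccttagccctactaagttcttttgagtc

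The table lists 10 start sites for the 7 genes, 2 of them for Ltbp1 and 3 for Ltbp4. In the 250 bases before each, Fstl3 and Ltbp2 each held 2 matches to CAGAC on either strand, Ltbp3 and Grem1 1 each, and Fstl1 0. The sites of Ltbp1 held 1 and 2, and those of Ltbp4 0 each. CAGAC occurred in 42.2% of the 250-base windows of 32851 promoters, so a match is common. The GC-rich SMAD site GGCGCC occurred in 9.59% of all windows, and among the 10 windows here in that of Grem1 and in 2 of the 3 of Ltbp4. Those 2 windows of Ltbp4 overlap, with start sites at 27333648 and 27333663, so they may share 1 match. The AP-1 site TGANTCA occurred in 6.75% of all windows and in 0 of these 10. A match is a description of letters and does not show binding.

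**Figure D1:**
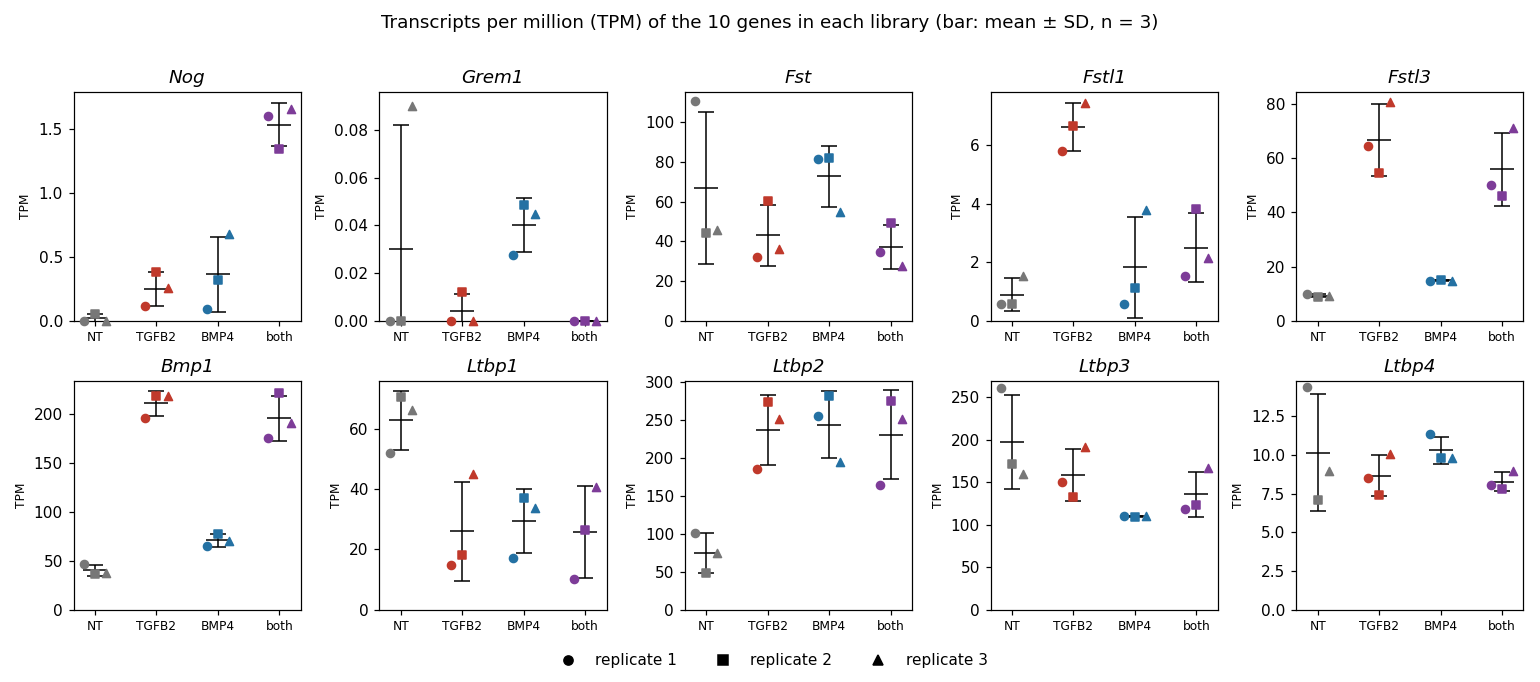
TPM of each of the 10 genes (y axis, linear, each panel with its own scale) in the 4 groups (x axis; both stands for BMP4-TGFB2), with 1 symbol per library and bars for the mean ± SD of 3 libraries. Bmp1 and Fstl3 form a low pair of groups (NT, BMP4) and a high pair (TGFB2, both), Ltbp2 is high in all treated libraries, and Nog is highest with both ligands.

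With TGFB2, 5 of the 9 genes that could be tested rose (Nog, Fstl1, Fstl3, Bmp1 and Ltbp2) and 0 fell. Of all genes tested, 11.3% rose and 11.1% fell in that comparison. With BMP4, 4 rose (Nog, Fstl3, Bmp1 and Ltbp2) and 1 fell (Ltbp3), where 3.19% of all genes rose and 2.25% fell. With both ligands 5 rose (Nog, Fstl1, Fstl3, Bmp1 and Ltbp2) and 0 fell, against 13.3% and 12.9% of all genes. With the replicate number as a block 8 members passed with both ligands, Fst, Ltbp1 and Ltbp3 lower besides. That rise was not particular to the members, since all genes that passed in this comparison went from 4007 to 6342 with the block. The median log2 fold change over the 9 genes that passed the filter on low counts was 1.67 with TGFB2, 0.74 with BMP4 and 1.64 with both, beside medians of 0.01, 0.00 and 0.01 over all genes. The 3 comparisons share the NT libraries. Nog entered the test only through treated libraries, since 0 of 3 NT libraries and 6 of 9 treated ones reached the filter level. The members and the other gene lists were chosen with earlier results of these data known. For both reasons these counts and medians are descriptions, and so are the counts for the lists.

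**Figure D2:**
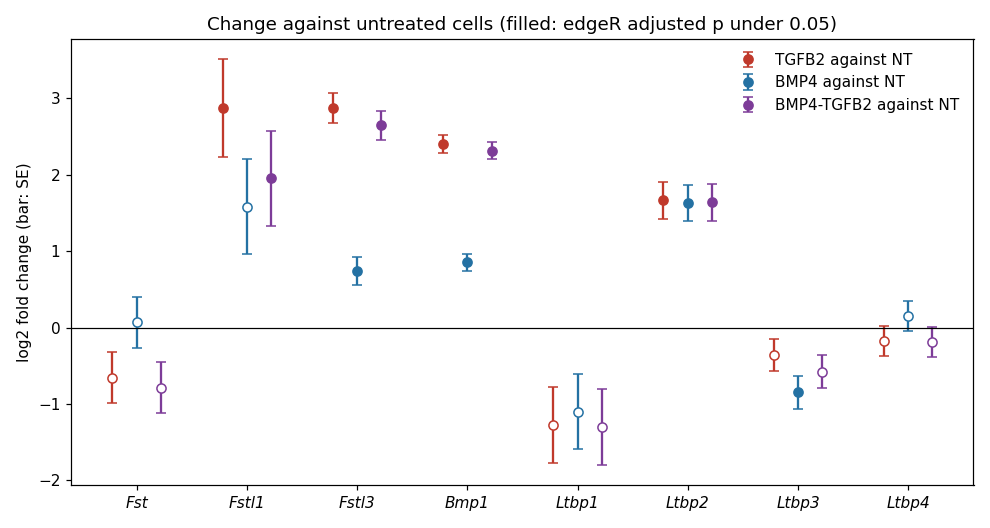
Log2 fold change against NT (y axis; bars are SE) for 8 of the genes under each treatment, with filled symbols for an edgeR adjusted p under 0.05. Ltbp2 has nearly the same change under all 3 treatments (1.63 to 1.67), while Fstl3 and Bmp1 change far more where TGFB2 is present. Nog is left out because its few counts in NT make the fitted fold uncertain, and Grem1 because it was not tested.

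Nog, noggin, a BMP antagonist (ENSMUSG00000048616.4, GRCm38 chromosome 11, 89300638 to 89302332, minus strand, a single transcript), was barely detected in untreated cells. Its estimated counts were 0, 2 and 0 in NT, 5, 12 and 9 with TGFB2, 4, 10 and 23 with BMP4, and 62, 37 and 53 with both. Every treated library lay above every NT library, and the libraries with both ligands lay above all others. Over each group the level was 0.251 ± 0.133 CPM with TGFB2, 0.380 ± 0.314 with BMP4 and 1.58 ± 0.24 with both. With 2 counts in NT a fold is given as a ratio of scaled group counts, with an exact 95% interval that covers counting error only. That ratio to NT was 12.7 (3.18 to 110) with TGFB2, 19.3 (4.98 to 165) with BMP4 and 85.3 (23.2 to 711) with both. The adjusted p was 0.0364 with TGFB2, 0.0460 with BMP4 and 0.00141 with both (edgeR). Since Nog entered the test only through treated libraries, its p-values here and below are descriptions and no independent support. The first call was lost in 7 of 13 alternatives and the second in 8 of 13, among them 4 of 6 and 5 of 6 that left out 1 library, while the call with both held in all 14.

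Nog with both ligands was also set against each ligand alone. The ratio of counts was 6.72 (4.42 to 10.6) against TGFB2 and 4.42 (3.07 to 6.51) against BMP4, with no overlap between libraries in either case. Against TGFB2 the edgeR adjusted p was 1 (unadjusted p = 0.00673), and across alternatives the adjusted p ran from 0.0969 to 1. Against BMP4 it was 0.136, and 0.0462 when the replicate number was kept as a block, at a log2 fold change of 2.33 ± 0.74. That difference also passed with DESeq2 (0.0444) and in limma on log2(TPM + 0.1) (0.0336) and log2(TPM + 1) (0.00556), and missed the threshold in the other 10 alternatives. Nog stayed low in absolute terms, at 1.53 ± 0.17 TPM in its highest group.

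Grem1, gremlin, another BMP antagonist (ENSMUSG00000074934.3, chromosome 2, 113746164 to 113758646), was not tested because no library reached the filter level of 0.290 CPM. Its estimated counts were 0, 0 and 8 in NT, 0, 1 and 0 with TGFB2, 3, 4 and 4 with BMP4, and 0 in each library with both. A total of 0 over the group with both allows up to 0.0315 CPM (3 counts). The BMP4 libraries were alike and all above 0, but the single NT library with 8 counts was higher than each of them.

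Fst, follistatin, which binds activins and with lower affinity some BMPs (ENSMUSG00000021765.9, chromosome 13, 114452290 to 114458951), had 131.9, 57.4 and 60.7 CPM in NT. It had 45.5, 72.1 and 41.3 CPM with TGFB2, 96.3, 96.8 and 69.3 with BMP4, and 45.6, 63.5 and 36.0 with both. The groups overlapped, apart from the libraries with both ligands, which all lay below those with BMP4. Log2 fold changes against NT were -0.65 ± 0.34 with TGFB2 (adjusted p = 0.194), 0.07 ± 0.34 with BMP4 (0.954) and -0.79 ± 0.34 with both (0.112, edgeR). With the replicate block the last of these passed (-0.78 ± 0.28, 0.0453). NT replicate 1 was the highest library of all, and without it the change with TGFB2 was -0.14 ± 0.28. For BMP4-TGFB2 against BMP4 the change was -0.85 ± 0.34 (adjusted p = 0.155), and -0.86 ± 0.27 (0.0469) with the replicate block.

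Fstl3, a relative of follistatin that binds activin and myostatin (ENSMUSG00000020325.10, chromosome 10, 79777272 to 79782630), had the tightest NT values of the group. They were 10.9, 10.8 and 10.7 CPM, against 80.4, 64.4 and 92.8 with TGFB2, 18.5, 17.2 and 18.4 with BMP4, and 62.8, 52.6 and 87.4 with both. The NT, BMP4 and TGFB2 libraries formed 3 separate levels, and those with both ligands overlapped the TGFB2 level. Fstl3 rose by 2.87 ± 0.19 log2 units with TGFB2 (7.33-fold, adjusted p = 7.14e-06) and by 2.65 ± 0.19 with both (6.26-fold, 6.65e-06). With BMP4 it rose by 0.74 ± 0.18 (1.67-fold, 0.0396, edgeR), a call lost in 9 of 14 alternatives, among them each of the 6 that left out 1 library (adjusted p up to 0.172). The other 2 calls held in all 14 alternatives. Its exons overlap those of Prss57 on the other strand, which had 0.211% of its level.

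Follistatin and Fstl3 changed places. In TPM, Fst exceeded Fstl3 by 11.4, 5.04 and 5.07 times in the NT libraries and by 5.54, 5.39 and 3.73 times with BMP4. With TGFB2 the ratio of Fst to Fstl3 was 0.497, 1.11 and 0.449, and with both 0.687, 1.06 and 0.384. Every library with TGFB2, alone or with BMP4, lay below every library without it. The replicate 2 libraries of both TGFB2 groups had about equal levels of the genes and the other 4 had more Fstl3. Inhba, which encodes the activin A subunit that both proteins bind, was at 17.2 ± 7.6 TPM in NT, 90.8 ± 44.6 with TGFB2, 63.3 ± 15.6 with BMP4 and 150.4 ± 38.8 with both.

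**Figure D3:**
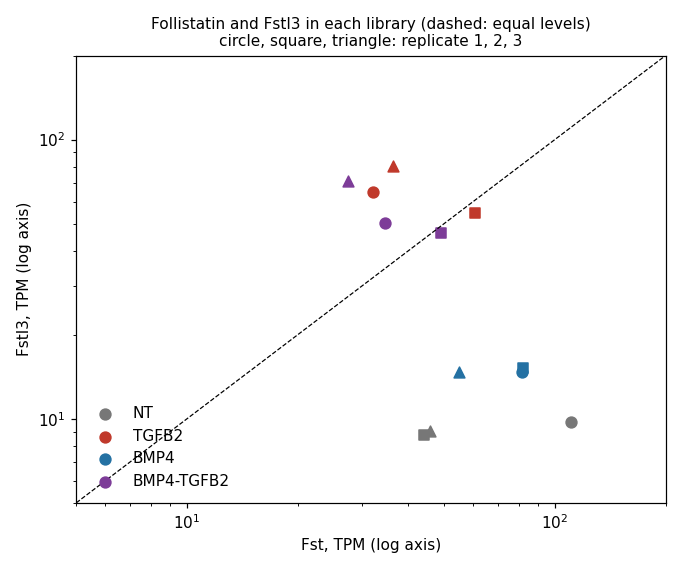
TPM of Fstl3 (y axis) against TPM of Fst (x axis), both on log axes, with 1 symbol per library, colour for the group and shape for the replicate number. Libraries without TGFB2 lie well below the dashed line of equal levels (ratio of Fst to Fstl3 from 3.73 to 11.4), and those with TGFB2 lie close to or above it (0.384 to 1.11), with the replicate 2 libraries of both TGFB2 groups just below.

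Fstl1, follistatin-like 1, a secreted glycoprotein that shares the follistatin domain (ENSMUSG00000022816.11, chromosome 16, 37776873 to 37836514), was low in NT at 0.888, 1.42 and 2.19 CPM. It reached 7.33, 15.0 and 10.7 CPM with TGFB2, 1.47, 2.66 and 9.35 with BMP4, and 3.92, 8.16 and 5.37 with both. Libraries of both TGFB2 groups lay above all NT libraries, and in BMP4 only replicate 3 stood out. Fstl1 rose by 2.87 ± 0.64 log2 units with TGFB2 (adjusted p = 0.00806), in all 14 alternatives, and by 1.96 ± 0.62 with both (0.0380, edgeR), a call lost in 7 of 14. With BMP4 the change was 1.58 ± 0.62 (adjusted p = 0.186). For BMP4 against TGFB2 it was -1.29 ± 0.60 (0.239), and -1.53 ± 0.44 with the replicate block (0.0345). Without BMP4 replicate 3, the highest of its group, it was -2.42 ± 0.50 and passed (0.0165).

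In TPM the levels of Fstl1 were 0.883 ± 0.561 in NT, 6.61 ± 0.82 with TGFB2, 1.83 ± 1.72 with BMP4 and 2.50 ± 1.19 with both. Its count per TPM is an index of the length of the transcripts the reads were assigned to. Relative to the mean of the NT libraries, that index was 1.30 in BMP4, 1.28 in BMP4-TGFB2 and 0.897 in TGFB2. Against NT the first 2 of these were at the 98.5th and 97.9th percentile of 14218 genes. Single libraries of the other groups were as high or nearly so, with 1.32 in NT replicate 2 and 1.23 in TGFB2 replicate 2, against 0.655 to 0.903 in the other 4. The summed fibroblast markers were also higher with TGFB2 than in NT, and their part in the level of Fstl1 was not tested.

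Bmp1, the procollagen C-proteinase (ENSMUSG00000022098.10, chromosome 14, 70474558 to 70520234), had the smallest error of the group. Its levels were 106.2, 90.8 and 87.9 CPM in NT, 487.1, 519.0 and 503.6 with TGFB2, 159.2, 179.7 and 176.8 with BMP4, and 441.0, 505.4 and 470.9 with both. The NT, BMP4 and TGFB2 libraries did not overlap, and those with both ligands overlapped TGFB2. Bmp1 rose by 2.41 ± 0.11 log2 units with TGFB2 (5.30-fold, adjusted p = 1.32e-06), by 0.86 ± 0.11 with BMP4 (1.81-fold, 0.00159) and by 2.31 ± 0.11 with both (4.97-fold, 1.30e-06; edgeR). All 3 calls held in each of 14 alternatives. In TPM, Bmp1 was the fifth of the 10 genes in NT (40.1 ± 5.6) and the second with TGFB2 (210.8 ± 13.2), where it overlapped Ltbp2.

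With BMP4 added to TGFB2, Fstl3 and Bmp1 were not higher than with TGFB2 alone. For BMP4-TGFB2 against TGFB2, 0 of the 9 tested genes passed, and 0% of all genes passed in either direction by edgeR. At an unadjusted edgeR p under 0.05 there were 516 of the 15319 genes tested and 1 member, Nog, and DESeq2 called 51 genes and 0 members. The changes were -0.23 ± 0.18 for Fstl3, -0.09 ± 0.11 for Bmp1, -0.03 ± 0.24 for Ltbp2 and -0.92 ± 0.59 for Fstl1. Against BMP4 alone, BMP4-TGFB2 was higher for 2 genes, Fstl3 (1.90 ± 0.19, adjusted p = 0.000289) and Bmp1 (1.46 ± 0.11, 0.000175; edgeR), and lower for 0. In that comparison 4.24% of all genes were higher and 4.98% lower. With the replicate block 4 members passed, Nog and Fst besides, as given above, while all genes that passed went from 1412 to 3476.

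BMP4 alone was lower than TGFB2 alone for the same 2 genes and higher for 0, where 3.67% of all genes were lower and 4.16% higher. The changes were -2.13 ± 0.19 for Fstl3 (adjusted p = 0.000230) and -1.55 ± 0.11 for Bmp1 (0.000122). The 4 calls between treated groups held in every alternative. On the log2 scale the effect of TGFB2 on Bmp1 was smaller where BMP4 was present, by an interaction of -0.95 ± 0.15 (edgeR adjusted p = 0.0452). In the model without the block it was the only one of the 9 tested genes to pass, with 1 lower and 0 higher beside 0.104% and 0.0522% of all genes. That call was lost in 14 of 19 alternatives, with adjusted p up to 0.157, 11 of them leaving out a single library. The interaction was -1.66 ± 0.34 for Ltbp2 (adjusted p = 0.0951) and -0.97 ± 0.26 for Fstl3 (0.211). With the replicate block 3 members passed, Bmp1 (0.0120), Ltbp2 (0.0429) and Fstl3 (0.0383). All genes that passed for the interaction went from 24 to 280 with that block. Ltbp2 also passed with DESeq2 (0.000920) and with no filter on low counts (0.00143).

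Ltbp2, a microfibril protein of the LTBP family (ENSMUSG00000002020.15, chromosome 12, 84783212 to 84876532), had changes of similar size under each treatment. It had 376.3, 218.0 and 320.4 CPM in NT, 759.0, 1114 and 1030 with TGFB2, 982.3, 1036 and 812.9 with BMP4, and 686.6, 1137 and 1023 with both. All 9 treated libraries lay above the 3 NT libraries, and the treated groups overlapped each other. Ltbp2 rose by 1.67 ± 0.24 log2 units with TGFB2 (3.17-fold, adjusted p = 0.000637), 1.63 ± 0.24 with BMP4 (3.09-fold, 0.00338) and 1.64 ± 0.24 with both (3.11-fold, 0.000558; edgeR). Each of these calls held in 14 of 14 alternatives. Between treated groups the differences were -0.04 ± 0.24 for BMP4 against TGFB2 and 0.01 ± 0.24 for BMP4-TGFB2 against BMP4. Ltbp2 shares exon bases with D030025P21Rik on the other strand, which had 3.98% of its level.

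Ltbp3, which binds latent TGFb covalently (ENSMUSG00000024940.11, chromosome 19, 5740904 to 5758532), was the most abundant of the 10 genes in NT by TPM (197.5 ± 55.6). Its levels were 612.6, 466.0 and 395.1 CPM in NT, 359.2, 311.4 and 475.3 with TGFB2, 277.4, 252.9 and 289.1 with BMP4, and 296.9, 272.1 and 420.0 with both. BMP4 libraries lay below all NT and all TGFB2 libraries, and the TGFB2 groups overlapped NT through their replicate 3. Ltbp3 fell by 0.85 ± 0.21 log2 units with BMP4 (adjusted p = 0.0420, edgeR), a call lost in 6 of 14 alternatives, 5 of them without 1 library (each BMP4 library, NT replicate 1 or 2). The change was -0.36 ± 0.21 with TGFB2 (adjusted p = 0.250) and -0.58 ± 0.21 with both (0.0669), which passed with the replicate block (-0.60 ± 0.19, 0.0252).

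Ltbp1, the best known carrier of latent TGFb (ENSMUSG00000001870.16, chromosome 17, 75005568 to 75392512), had 165.8, 245.4 and 226.7 CPM in NT. It had 51.1, 63.0 and 149.2 CPM with TGFB2, 59.4, 111.3 and 126.9 with BMP4, and 37.8, 77.2 and 143.5 with both. Every treated library lay below every NT library, while replicate 1 was the lowest of its group in all 4 groups and replicate 3 the highest of each treated group. The log2 fold changes were -1.28 ± 0.50 with TGFB2 (adjusted p = 0.0884), -1.10 ± 0.49 with BMP4 (0.258) and -1.30 ± 0.50 with both (0.0748, edgeR). With the replicate block all 3 passed, at -1.44 ± 0.26 (0.00167), -1.19 ± 0.25 (0.0120) and -1.50 ± 0.26 (0.00108). By replicate number, BMP4 minus NT was -1.48, -1.14 and -0.84 in log2 CPM. Markers of cycling cells were lowest in replicate 1 of each group too, at 596 CPM in sum with TGFB2 and 417 with both. Replicates 2 and 3 had 1992 and 1959 CPM with TGFB2 and 1467 and 1815 with both, and NT libraries 1943 to 2942. The part of these markers in the level of Ltbp1 was not tested.

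Ltbp4, which also binds latent TGFb (ENSMUSG00000040488.18, chromosome 7, 27305136 to 27337692), was the lowest of the LTBPs. It had 42.4, 24.5 and 29.8 CPM in NT, 29.2, 24.2 and 32.3 with TGFB2, 40.8, 32.5 and 34.6 with BMP4, and 28.5, 25.2 and 31.0 with both. The treated groups overlapped NT, with log2 fold changes between -0.19 ± 0.20 and 0.16 ± 0.20 (edgeR adjusted p from 0.510 to 0.751). Only BMP4 lay above TGFB2 and above BMP4-TGFB2 without overlap, by 0.33 ± 0.20 (adjusted p = 0.382) against TGFB2.

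The makeup of the LTBP transcripts differed between untreated and treated cells, while their sum overlapped. The sum over the 4 genes was 345.7 ± 72.6 TPM in NT, 430.1 ± 69.4 with TGFB2, 393.4 ± 44.0 with BMP4 and 400.6 ± 87.9 with both. Ltbp2 made up 23.7%, 16.3% and 24.3% of it in the NT libraries, and 51.7%, 63.4% and 50.4% with TGFB2. Its share was 64.8%, 64.4% and 55.8% with BMP4 and 54.4%, 63.6% and 53.8% with both. No treated library came near the NT shares, though 3 libraries against 3 cannot give an exact permutation p below 0.1. The mean share of Ltbp3 went from 56.7% in NT to 37.0%, 28.2% and 34.5%, and that of Ltbp1 from 19.1% to 5.78%, 7.52% and 6.08%, in the order TGFB2, BMP4 and both. The sum of Ltbp1, Ltbp3 and Ltbp4, the LTBPs that bind latent TGFb, ran from 234.7 to 327.7 TPM in NT, 158.6 to 247.1 with TGFB2, 138.8 to 155.6 with BMP4 and 137.3 to 216.5 with both. In BMP4 and BMP4-TGFB2 all libraries lay below all NT libraries, and TGFB2 overlapped NT through its replicate 3.

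**Figure D4:**
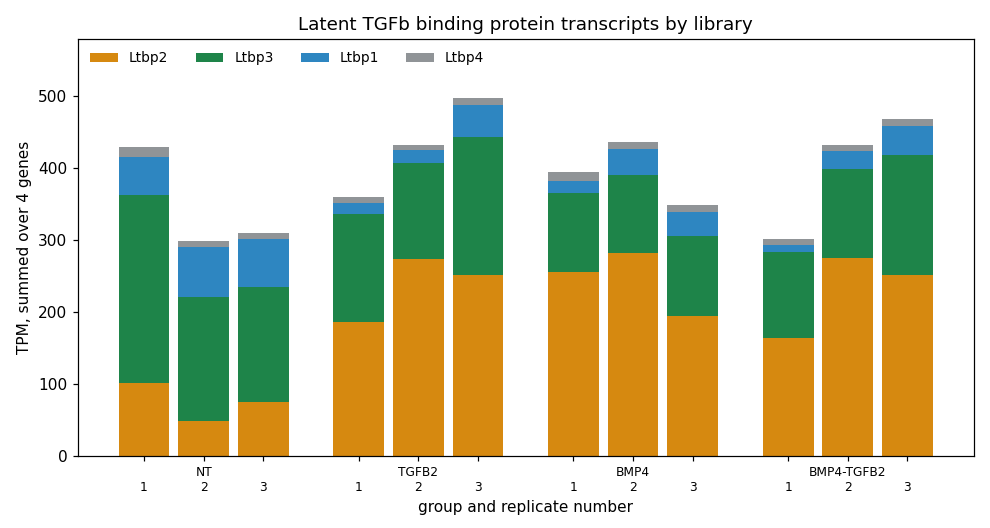
Stacked TPM of Ltbp2, Ltbp3, Ltbp1 and Ltbp4 (y axis, from 0) in each of the 12 libraries (x axis, group and replicate number). Ltbp2 is the largest segment in all 9 treated libraries (50.4% to 64.8%) and Ltbp3 in the 3 NT libraries (51.5% to 60.9%).

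In order of TPM, untreated cells had Ltbp3 first, then Ltbp2, Fst and Ltbp1, whose ranges overlapped in turn, then Bmp1, Ltbp4 and Fstl3, of which the last pair overlapped, and Fstl1, Grem1 and Nog below 1. With TGFB2, Ltbp2 and Bmp1 overlapped at the top, followed by Ltbp3, then Fstl3, Fst and Ltbp1, each overlapping the next. With BMP4, Ltbp2 was followed by Ltbp3, then Fst and Bmp1, which overlapped. With both ligands the order was that of TGFB2 for the first 8 genes.

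Across the 12 libraries, Bmp1 and Fstl3 had a Pearson correlation of log2 CPM of 0.978, and Fst and Fstl3 one of -0.70. Among 10175 genes whose mean log2 CPM was 2 or more, the pattern most like that of Bmp1 was Inava (0.994), followed by Cldnd1 and Clu. For Fstl3 it was Pdlim7 (0.989), Ptov1 and Prss22, and for Ltbp2 it was Tgfbr1 (0.970), which encodes a TGFb receptor, Fgfrl1 and Prss23. Ltbp1 was nearest to Smc3 (0.972), Mto1 and Stag1, Fstl1 to Pde4d (0.929), Has2 and Sparc, and Fst to Sash1 (0.953), Naaladl2 and Reps2. Nog came nearest to Capn2 (0.904), Nectin1 and Plcd3, Ltbp3 to Itpr1 (0.938), Trf and Spata5, and Ltbp4 to Fbxo33 (0.901), Zfp36l1 and Irs1. These are descriptions over libraries that share groups and replicate numbers, and they carry no p.

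Other secreted BMP and activin antagonists were mostly too low to test, with 10 of 22 tested. With TGFB2 4 rose and 1 fell, with BMP4 3 rose and 0 fell, and with both 4 rose and 1 fell. The median was 0.98, 0.90 and 1.32, beside medians of all genes within 0.02 of 0. Of all genes, 11.3%, 3.19% and 13.3% rose with TGFB2, BMP4 and both, and 11.1%, 2.25% and 12.9% fell. Nbl1, a BMP antagonist of the DAN family, rose by 2.80 ± 0.56, 3.23 ± 0.57 and 3.49 ± 0.58 log2 units with TGFB2, BMP4 and both. Smoc2, a matrix protein with a follistatin-like domain, rose by 2.87, 3.76 and 4.69. Crim1, a membrane protein that binds BMPs, fell by 0.90 ± 0.16 with TGFB2 (adjusted p = 0.00196, edgeR) and by 0.56 ± 0.16 with both, and its change with BMP4 was -0.32 (0.311).

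Of 20 other anchors and activators of latent TGFb, all tested, 7 rose and 1 fell with TGFB2, 3 rose and 0 fell with BMP4, and 7 rose and 1 fell with both. The medians were 0.77, 0.50 and 0.72. Of all genes, 11.3%, 3.19% and 13.3% rose in the same order, and 11.1%, 2.25% and 12.9% fell. Furin, the protease that cuts the TGFb propeptide, rose by 1.19 ± 0.12, 0.45 ± 0.12 and 1.33 ± 0.12. Itgav, the integrin chain that binds latent TGFb, rose by 0.84 ± 0.14, 0.70 ± 0.14 and 1.03 ± 0.14. Plau, the urokinase protease, rose by 2.92 ± 0.45 with TGFB2 and 2.98 ± 0.45 with both, and its change with BMP4 was 1.44 ± 0.43 (edgeR adjusted p = 0.0793). The gene that fell was Itgb8, an integrin chain that activates TGFb (-1.59 and -2.13), named because it was the only one.

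Of 14 ligands that these proteins bind, 11 were tested. With TGFB2 2 rose and 1 fell, with BMP4 2 rose and 0 fell, and with both 2 rose and 2 fell, at medians of 0.08, 0.44 and -0.26. Of all genes, 11.3%, 3.19% and 13.3% rose in the same order, and 11.1%, 2.25% and 12.9% fell. With TGFB2 and with both, the counts of ligands were near those shares. Inhba rose by 2.44 ± 0.38, 1.92 ± 0.38 and 3.20 ± 0.39. Bmp2, a noggin target, rose by 3.62 ± 0.38 with TGFB2 and 3.33 ± 0.38 with both, and its change with BMP4 was 0.68 ± 0.36 (edgeR adjusted p = 0.361). Transcripts of Tgfb2 itself fell by 1.79 ± 0.33 with TGFB2 and 1.65 ± 0.33 with both, and its change with BMP4 was -0.30 (0.693).

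Of 20 relatives, enhancers and substrates of Bmp1, 18 were tested. With TGFB2 7 rose, with both 7 rose, with BMP4 0 rose, and 0 fell in any of the 3, at medians of 1.39, 1.37 and 0.73. Of all genes, 11.3%, 13.3% and 3.19% rose in the same order, and 11.1%, 12.9% and 2.25% fell. Col7a1, an anchoring fibril collagen, went from 7.79 ± 1.8 CPM in NT to 190.2 ± 53.0 with TGFB2 and 223.9 ± 55.3 with both, while BMP4 libraries had 27.1 ± 24.7 (adjusted p = 0.0697 against NT). Col1a1 rose by 2.14 ± 0.32 and 1.73 ± 0.32 (edgeR) at levels of 7.17 and 5.41 CPM, and it is also among the fibroblast markers.

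**Figure D5:**
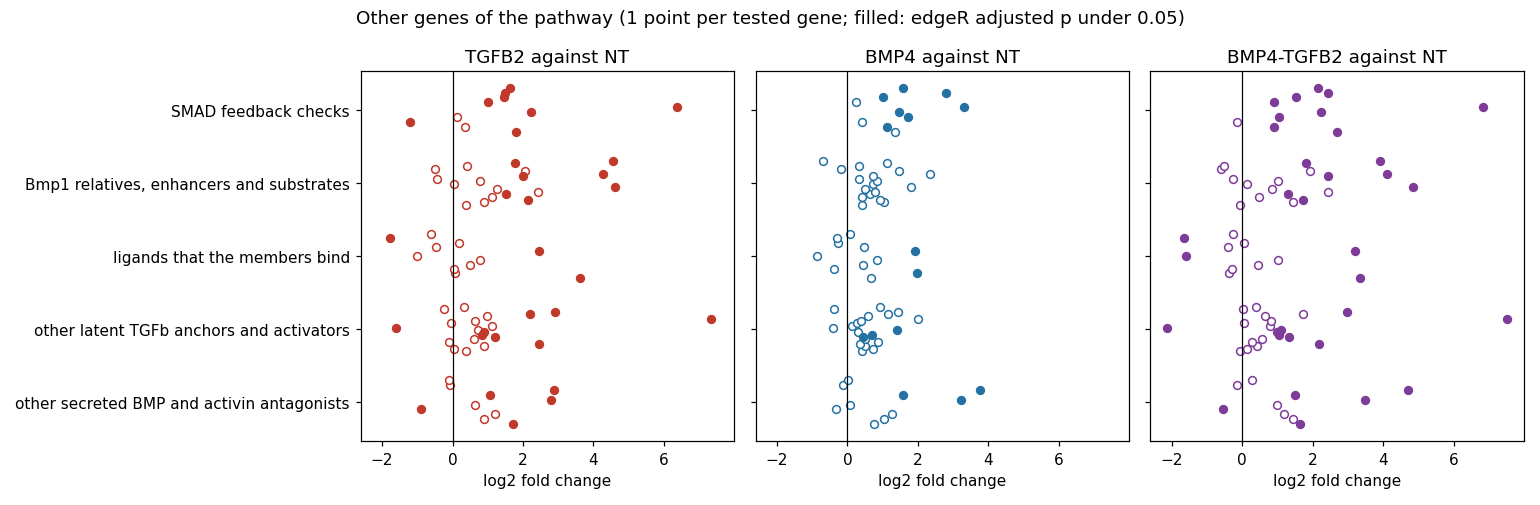
Log2 fold change against NT (x axis, same scale in each panel) of the tested genes in the 5 other lists (y axis), with filled symbols for an edgeR adjusted p under 0.05. Filled symbols lie mostly to the right of 0, the ligands with both treatments have 2 on each side, and BMP4 alone has 0 filled symbols among relatives and substrates of Bmp1.

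SMAD feedback genes were listed to check for a response to the ligands. Of 10 tested, 7 rose and 1 fell with TGFB2, 7 rose and 0 fell with BMP4, and 9 rose and 0 fell with both. Of all genes, 11.3%, 3.19% and 13.3% rose in the same order, and 11.1%, 2.25% and 12.9% fell. Pmepa1, a feedback inhibitor of SMAD2 and SMAD3, went from 158.6 ± 26.6 CPM in NT to 748.2 ± 36.6, 435.8 ± 41.6 and 742.7 ± 48.6 with TGFB2, BMP4 and both. Smad7, an inhibitory SMAD, rose by 1.63, 1.57 and 2.16 log2 units, and Skil, a SMAD repressor, by 1.47, 1.01 and 1.54. Like Bmp1 and Fstl3, Pmepa1 and Skil were at similar levels in both TGFB2 groups and at an intermediate level with BMP4.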

How the data were processed

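Poly(A) RNA from 12 libraries in 4 groups was sequenced as unstranded paired reads in 1 batch, per the labels' protocols and the file headers. The submitters' processing notes name Salmon 1.2.1, STAR 2.7.5b and bcl2fastq 2.17, and the build GRCm38.p6. What each tool did is not given in the sources used here. Per the file headers, the authors deposited estimated counts per gene, of which 82.9% were whole numbers, and they were rounded here. The authors also deposited TPM, scaled for length and depth, used here to compare genes.

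Of 54347 genes, 15319 passed filterByExpr (minimum count 10). They were fitted in edgeR 4.0.16 (R 4.3.3) with TMM scaling and a single quasi-likelihood model by group over all 12 libraries, giving 7 comparisons. Alternatives used DESeq2 1.42.0, limma 3.58.1 on log2(TPM + 0.1 or 1), other scaling and filters, a replicate block, only the groups compared, and libraries left out. The members and lists were chosen with earlier results of these data known. Members are all named, with up to 3 genes of smallest p per other list and the 3 genes most correlated with each member; others are marked. Some items that the rule names are not reported here. Positions are from GENCODE M21 on GRCm38, which held 9 of 10 identifiers in the same version (not Ltbp4). The code was tested on simulated counts.

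Same-numbered libraries deviated together from their group means, with correlations over 0.1 in every pair of BMP4 against NT (0.162 to 0.444), BMP4-TGFB2 against TGFB2 (0.229 to 0.505), BMP4-TGFB2 against BMP4 (0.146 to 0.348) and BMP4 against TGFB2 (0.150 to 0.346). In TGFB2 against NT and BMP4-TGFB2 against NT they were 0.0805 to 0.304 and 0.0256 to 0.233. The second principal component (14.4% of the variance) placed replicates 1, 2 and 3 in the same order in all 4 groups. The numbers were therefore taken to pair the libraries across groups, as a property of the data, since the labels do not say so. The main model had no term for that pairing, so its calls leave it out. Calls that the replicate block changed are given beside the main ones. No libraries of a group agreed within sampling noise (lowest chi-square per degree of freedom 29.0). The common biological coefficient of variation was 0.299.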

Additional observations from a re-analysis of the deposited data

Results flagged for a closer look

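The effect of TGFB2 on Bmp1 differed with and without BMP4. TGFB2 raised Bmp1 by 2.41 ± 0.11 log2 units in cells without BMP4 and by 1.46 ± 0.11 in cells with BMP4, a difference of -0.95 ± 0.15 (edgeR interaction test, adjusted p = 0.0452). Both effects were upward, and the level with both ligands (472.4 ± 32.2 CPM) overlapped that with TGFB2 alone (503.2 ± 15.97 CPM). The size ranged from -1.06 to -0.89 over 19 alternatives, and the adjusted p from 2.99e-06 to 0.157.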

How the results depend on the processing

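Of 925 values of single genes under alternatives, 845 kept their side of the threshold, 29 came to pass and 51 no longer passed. None passed in the direction opposite to the main fit. Some changes that did not pass altered sign, such as Nog for BMP4 against TGFB2 (0.60 in the main fit, -0.26 at the lowest). Counts of the 10 genes that passed, by comparison, moved as follows. With no filter on low counts 8 passed for BMP4-TGFB2 against NT and 2 for the interaction, and with DESeq2 2 for the interaction. In limma on either TPM scale 3 passed for BMP4 against NT and 0 for the interaction, and without all number 1 libraries 2 and 0. Leaving out single libraries gave 2 to 3 for BMP4 against NT and 0 to 1 for the interaction, with Fstl3 lost in every case of the former.

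Counts over all genes were 3423 for TGFB2 against NT, 833 for BMP4 against NT, 4007 for BMP4-TGFB2 against NT, 0 for BMP4-TGFB2 against TGFB2, 1412 for BMP4-TGFB2 against BMP4, 1200 for BMP4 against TGFB2 and 24 for the interaction. With no filter they were 23 for BMP4-TGFB2 against TGFB2 and 173 for the interaction. DESeq2 gave 1562 for BMP4 against NT, 51 for BMP4-TGFB2 against TGFB2, 2219 for BMP4-TGFB2 against BMP4, 1977 for BMP4 against TGFB2 and 295 for the interaction. Limma gave 2 and 13 on log2(TPM + 0.1) for BMP4-TGFB2 against TGFB2 and the interaction, and 1 for the former on log2(TPM + 1). Fits on only the groups compared gave 554 for BMP4 against NT and 932 for BMP4-TGFB2 against BMP4. The interaction had 6 without all number 1 libraries. Leaving out single libraries gave 2011 to 3629 for TGFB2 against NT, 292 to 739 for BMP4 against NT, 2519 to 4195 for BMP4-TGFB2 against NT, 0 to 1 for BMP4-TGFB2 against TGFB2, 655 to 1304 for BMP4-TGFB2 against BMP4, 558 to 1134 for BMP4 against TGFB2 and 0 to 26 for the interaction.

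The replicate block gave 5799, 2356, 6342, 6, 3476, 2999 and 280 genes in the order above, and 8 members for BMP4-TGFB2 against NT, 4 for BMP4-TGFB2 against BMP4 and 3 for the interaction (Bmp1, Ltbp2 and Fstl3). In TGFB2 against NT and BMP4-TGFB2 against NT, where the lowest correlation of same-numbered libraries was under 0.1, 6 of 6 and 4 of 6 libraries correlated best with their own number. Ltbp1 passed in both with no filter, with DESeq2, and without replicate 3 of the treated group (-1.90 and -1.89). The block changed no member's call beyond those given with each gene above. Nog and Grem1 are limited by depth. The causes of these shifts were not tested.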
